A study of Mus musculus with 14 samples.

Results

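The regions described here are the 1000 strongest Myf6 binding peaks in cultured mouse myotubes, called strong peaks below. They were chosen by their pileup, the number of overlapping ChIP fragments at the summit, from the 12693 peaks that the authors' list of 12898 peaks holds on chromosomes 1 to 19, with ties broken by the smaller chromosome and then the smaller start. Coordinates are those of the deposited list, in the mm10 (GRCm38) build. The peaks come from 1 ChIP library and 1 control library made from primary myotubes, multinucleated cells grown from adult muscle satellite cells, the stem cells of muscle. The ChIP used an antibody against the Flag tag, so the protein measured was a tagged Myf6, and its amount relative to the natural protein is not given in the sources used here. RNA-seq of hind limb skeletal muscle gave 4 groups of 3 libraries: wild type (WT) without injury, Myf6 knockout (KO) without injury, WT after injury and KO after injury. The knockout allele, the strain, age and sex of the mice, and the kind and time of the injury are not given in the sources used here. Nothing in the labels says that the libraries of a group came from separate litters or days, and p-values below measure the spread between these libraries. Binding in cultured myotubes and RNA in whole muscle were thus measured in different material.

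Myf6, also named MRF4, is a basic helix-loop-helix transcription factor of the family that includes MyoD, Myf5 and myogenin, and it is the family member with the highest level in adult muscle fibres. These factors pair with E proteins such as the product of Tcf12 and bind the E-box, CANNTG, and in muscle cells they favour cores that read CAGCTG or CAGGTG. Their known targets in differentiating muscle include the genes of the sarcomere, the contractile unit, and of the acetylcholine receptor, which receives the signal of the motor nerve.

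Sequence could be read at the summits that fell inside a promoter window, which runs from 250 bases before to 50 bases after a gene's annotated start (RefSeq, GRCm38.p6). These held 19 strong peaks, 13 at protein-coding genes and 6 at long noncoding RNA genes. The 8 windows below are shown because they hold the tallest promoter peaks with an E-box and the promoter peaks of listed muscle genes. Each reaches 50 bases to either side of the summit, or to the end of the promoter window, and is written 5′ to 3′ on the strand of the gene, with every E-box in capitals. They are Chrng (chr1:87205601-87205701, plus strand), Gm35227 (chr9:62166290-62166390, plus strand), Fam78a (chr2:32065064-32065161, minus strand), Rrp15 (chr1:186749312-186749412, minus strand), Akap13 (chr7:75455321-75455421, plus strand), Chrna1 (chr2:73580362-73580462, minus strand), Tnnt2 (chr1:135836084-135836159, plus strand) and Hdac9 (chr12:34529043-34529139, minus strand).
Chrng: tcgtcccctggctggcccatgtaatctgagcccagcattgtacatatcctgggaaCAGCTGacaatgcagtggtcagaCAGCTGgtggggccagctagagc
Gm35227: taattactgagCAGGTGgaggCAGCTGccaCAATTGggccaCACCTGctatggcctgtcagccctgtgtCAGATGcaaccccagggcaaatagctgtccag
Fam78a: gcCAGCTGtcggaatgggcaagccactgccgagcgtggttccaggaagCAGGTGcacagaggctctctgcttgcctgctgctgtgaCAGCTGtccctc
Rrp15: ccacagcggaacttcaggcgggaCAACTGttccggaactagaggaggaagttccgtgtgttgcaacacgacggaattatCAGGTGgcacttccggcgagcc
Akap13: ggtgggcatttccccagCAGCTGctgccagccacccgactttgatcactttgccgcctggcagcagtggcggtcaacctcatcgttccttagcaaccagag
Chrna1: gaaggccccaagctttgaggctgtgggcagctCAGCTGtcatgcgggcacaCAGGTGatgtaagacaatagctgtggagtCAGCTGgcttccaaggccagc
Tnnt2: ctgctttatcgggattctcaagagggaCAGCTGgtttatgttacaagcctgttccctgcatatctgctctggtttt
Hdac9: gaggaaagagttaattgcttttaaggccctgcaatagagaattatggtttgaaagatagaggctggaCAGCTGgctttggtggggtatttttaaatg

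Chrng and Chrna1 encode the gamma and alpha subunits of the muscle acetylcholine receptor, and their windows held 2 and 3 E-boxes, all with a CAGCTG or CAGGTG core. Tnnt2, the troponin T of heart and embryonic muscle, and Hdac9, a histone deacetylase that binds MEF2 factors, had 1 CAGCTG each. The window of the noncoding gene Gm35227 held 5 E-boxes, the most of the 19. The Rrp15 window, at a gene for ribosomal RNA processing, lies between divergent genes and had the E-boxes CAACTG and CAGGTG.

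All 19 of these windows held at least 1 E-box on either strand, a share of 100% (95% Wilson interval 83.2 to 100). Among the 237 other peaks with a summit in a promoter window the share was 90.3% (85.9 to 93.5), and in the middle 101 bases of all 32851 promoter windows it was 36.2%. The intervals of the strong and the other peaks overlapped, while both lay above the share of promoters at large. CAGCTG, which reads the same on both strands, was the most frequent core: it stood in 73.7% of the strong windows (51.2 to 88.2), in 57.4% of the other peaks' windows (51.0 to 63.5) and in 5.55% of promoters. CAGGTG stood in 36.8%, 31.2% and 7.64%. These shares add to more than the whole because 14 of the 19 windows held more than 1 E-box.

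The 2 favoured cores lay close to the summits. The nearest CAGCTG or CAGGTG was a median of 7.5 bp from the summit in the strong peaks that had one within the promoter window and 100 bp, and 11.5 bp in the other peaks. It was within 25 bp in 14 of 19 strong peaks and 146 of 237 other peaks. More than 1 such core was present in 12 of 19 strong peaks and in 65 of 237 other peaks. The strong peaks at Rasgrp3 and the noncoding gene Gm39671 had no CAGCTG or CAGGTG in reach, and their E-boxes were CATATG in the first and CAGATG and CAGTTG in the second.

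**Figure D1:**
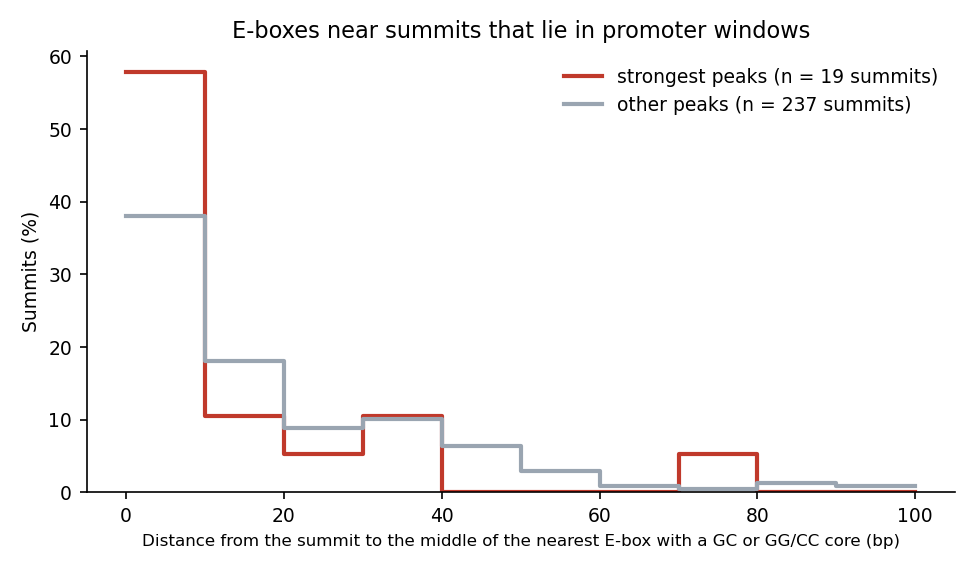
Share of summits (%) by distance in bp from the summit to the middle of the nearest E-box with one of the favoured cores, in bins of 10 bp, for the 19 strong peaks and the 237 other peaks whose summits lie in promoter windows. Both lines are highest in the bin next to the summit, with medians of 7.5 and 11.5 bp.

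Other motifs were searched on both strands in the same windows. The MEF2 site, bound by the factors that work with the myogenic family, stood in 2 of 19 strong windows (10.5%, 2.94 to 31.4), 2.53% of the other peaks' windows and 1.21% of promoters. TGACAG stood in 15.8%, 19.4% and 6.73%, and CATTCC in 5.26%, 8.02% and 5.54%. The general promoter motifs CCAAT and GGGCGG stood in 10.5% and 5.26% of the strong windows against 18.3% and 19.1% of promoters. AACCAC stood in 5.26% of the strong windows and 4.52% of promoters, and neither TGANTCA nor GATAAG was in these 19 windows, where a count of 0 allows a share of up to 16.8%. With 19 windows none of these motifs could be told apart between strong and other peaks, since the intervals overlapped. The windows are a small and particular fraction of the strong peaks, and sequence at the others was not analysed here.

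The strong peaks had pileups from 44.4 to 145, with a median of 55.0, which corresponds to 46 to 150 fragments with a median of 57. The other peaks had a median of 20 fragments. These values chose the peaks and are given as a description, as are the other values of the same list. The strong peaks had a median fold enrichment over the local background of 12.6, against 7.41 for the other peaks, and were longer, with medians of 260 and 168 bp. Their local background, computed from the pileup and the fold, was also higher, with medians of 4.0 and 1.65 scaled fragments. The boundary fell inside a tie: 985 peaks lay above a pileup of 44.4, and of the 70 at that value the tie rule took 15, all on chromosomes 1 and 2. The last strong peaks were at Dgkz (chr2:91947728-91947947), between genes at chr2:93132225-93132560, and at Cd82 (chr2:93461204-93461494), and the first left out, at Sh3d19, Shb and Gabbr2, had the same 46 fragments. A count of 46 has a 95% Poisson interval of 33.7 to 61.4, and 1439 other peaks reached its lower bound. This interval, like those of shares, covers counting error only.

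Height and enrichment ranked the peaks differently. Among the strong peaks 66.4% had a fold of 10 or more, as had 20.8% of the others, and 402 of the strong peaks were also among the 1000 highest by fold. By the authors' q-value the overlap was 704 of 1000. A background of at least 10 scaled fragments was found at 36 strong peaks (3.6%), against 0.188% of the other peaks. Of the 36, 8 were linked to, inside or within 10 kb of a gene of the muscle lists described below. By the link alone 5 of the 36 were, as were 43 of all 1000 strong peaks.

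**Figure D2:**
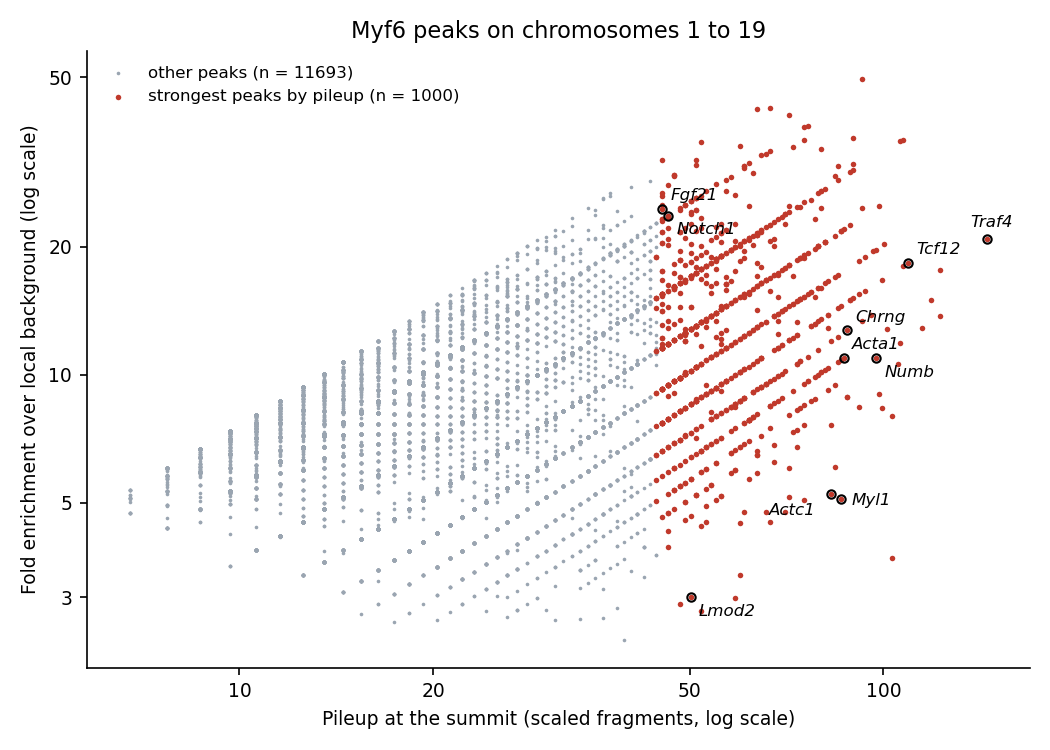
Fold enrichment over the local background against pileup at the summit (both on log scales) for the 1000 strong peaks and the 11693 other peaks on chromosomes 1 to 19, with the tallest peak linked to each named gene circled. The strong peaks begin at a pileup of 44.4 and span folds from 2.79 to 49.6, with Actc1, Myl1 and Lmod2 near the bottom and Fgf21 and Notch1 high for their pileup.

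The tallest peak (chr11:78162519-78162796) had a pileup of 145, or 150 fragments, and a fold of 20.8, and lay 2879 bp after the start of Traf4, an adaptor of TNF receptor signalling. The next were 7254 bp before the start of Ube2d1, a ubiquitin-conjugating enzyme (chr10:71292373-71292694), and 5028 bp before that of Pacsin2, a protein that bends membranes (chr15:83469508-83469895), each with 127 fragments. Peaks inside Ptgis, the prostacyclin synthase (chr2:167244249-167244500), and Plpp1, a lipid phosphatase (chr13:112823970-112824262), had 123 and 119 fragments. The sixth lay inside Tcf12, which encodes an E protein partner of the myogenic factors, with 113 fragments and a fold of 18.3 (chr9:71874782-71875115). The list went on with Inppl1, an inositol phosphatase (chr7:101834316-101834551), a peak inside Eml6 (chr11:29774303-29774630), Plet1 at 36729 bp (chr9:50457675-50458013) and Ptcd2 at 39993 bp (chr13:99304577-99304798), at 110 to 111 fragments. All 7 of these peaks that were linked to a gene lay more than 2 kb from its start.

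The highest fold, 49.6, was at a peak 2117 bp after the start of Iba57, a gene of iron-sulfur protein assembly (chr11:59161504-59161782), over a background of 0.889. A peak inside Wnt9a, a Wnt ligand, reached 42.3 (chr11:59322843-59323405), and peaks far from genes on chromosomes 4 (chr4:50013248-50013557) and 7 (chr7:40422192-40422572) reached 42.2 and 40.8. Hip1, a clathrin adaptor, followed at 38.3 (chr5:135513111-135513583). The lowest folds were 2.79 inside Pgm1, a phosphoglucomutase (chr4:99974396-99974754), 2.90 inside Actc1, the cardiac actin that embryonic muscle also makes (chr2:114051606-114051745), and 2.99 inside Mib1. Their backgrounds were 18, 16 and 19, the reverse of the high-fold peaks.

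Most strong peaks lay away from gene starts. The summit was inside a protein-coding gene in 56.9% of the strong peaks (95% Wilson interval 53.8 to 59.9) and 58.1% of the others, while protein-coding genes cover 40.3% of these chromosomes. On the chromosomes with known starts, 46 of 963 strong peaks (4.78%, 3.6 to 6.31) lay within 1 kb of a protein-coding start, against 3.71% (3.38 to 4.08) of the others, and these intervals overlapped. Within 10 kb the shares were 23.8% (21.2 to 26.6) and 19.8% (19 to 20.5), and within 50 kb 61.1% (57.9 to 64.1) and 55.2% (54.2 to 56.1), without overlap. The median distance to the nearest known start was 32668 bp for the strong peaks and 40655 bp for the others. Of the 46 near a start, 27 lay before it. Peaks of 1 library are not replicates, so these intervals say how well the counts fix the shares and nothing about another culture.

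Strong peaks were sometimes grouped. Another strong peak lay within 10 kb of 103 of them and within 1 kb of 14, with 324 bp as the shortest distance between summits. Each strong peak was linked to the protein-coding gene whose known start was nearest to its summit, within 50 kb, which gave 518 peaks linked to 470 genes. For 193 others a gene without a known start was nearer and within 50 kb, and for 289 no known start lay within 50 kb. The 37 strong peaks on chromosome 18, which has no known start, are divided between these groups. The link names a neighbour and does not show that the gene is regulated. Of the linked genes, 42 had at least 2 strong peaks and 6 had 3: Pkhd1, Itgb6, Srsf3, 1700016D06Rik, Myo10 and Myh3.

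Chromosome 14 stood apart. It held 1 strong peak among 225 peaks (0.444%), while the other 18 autosomes held 27 to 98 each, or 5.88% to 9.85% of their peaks. Its tallest peak had a pileup of 52.1. The median pileup was 15.4 on chromosome 14 and 19.3 to 21.2 on the others, and the median background was 1.0 against 1.65 to 2.0. The median fold was 7.74, against 7.36 to 7.74 elsewhere, so the medians of pileup and background were low together. The cause was not tested.

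**Figure D3:**
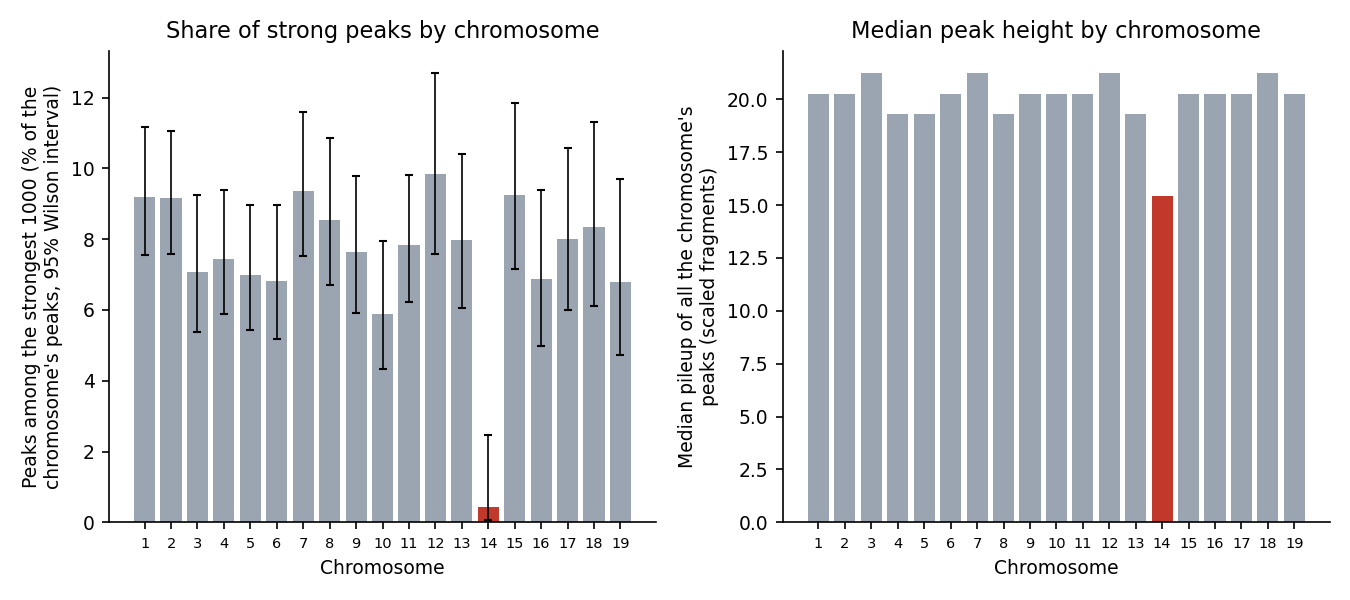
Left, share of each chromosome's peaks that are among the 1000 strongest, with 95% Wilson intervals, and right, the median pileup of all peaks of the chromosome in scaled fragments. Chromosome 14, in red, has 0.444% strong peaks and a median pileup of 15.4, below the other 18 autosomes in both.

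Of all protein-coding genes with a known start, 470 of 16457 (2.86%) were linked to a strong peak and 22% to any peak, and in each of 8 lists of muscle genes the share was larger. Of the sarcomere list, 13 of 41 genes (31.7%) had a strong peak, and 85.4% had any peak. Of the calcium handling list the counts were 4 of 13 genes, of the neuromuscular junction list 3 of 10, of the cell cycle exit list 3 of 10 and of the myogenic regulators 5 of 21. Myokines, proteins that muscle secretes, had strong peaks at 5 of 29 genes (17.2%), the Notch pathway at 2 of 14 and the dystrophin complex and membrane repair list at 1 of 12. The lists of endothelial, adipocyte, macrophage, fibroblast and red blood cell markers had no strong peak linked by a start, out of 5, 4, 3, 3 and 4 genes. Any peak was linked to 40%, 50%, 33.3%, 33.3% and 0% of them, so that 4 of these 5 small lists also lay above the 22% of all genes. These are counts of neighbours, described beside the count over all genes and not tested.

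**Figure D4:**
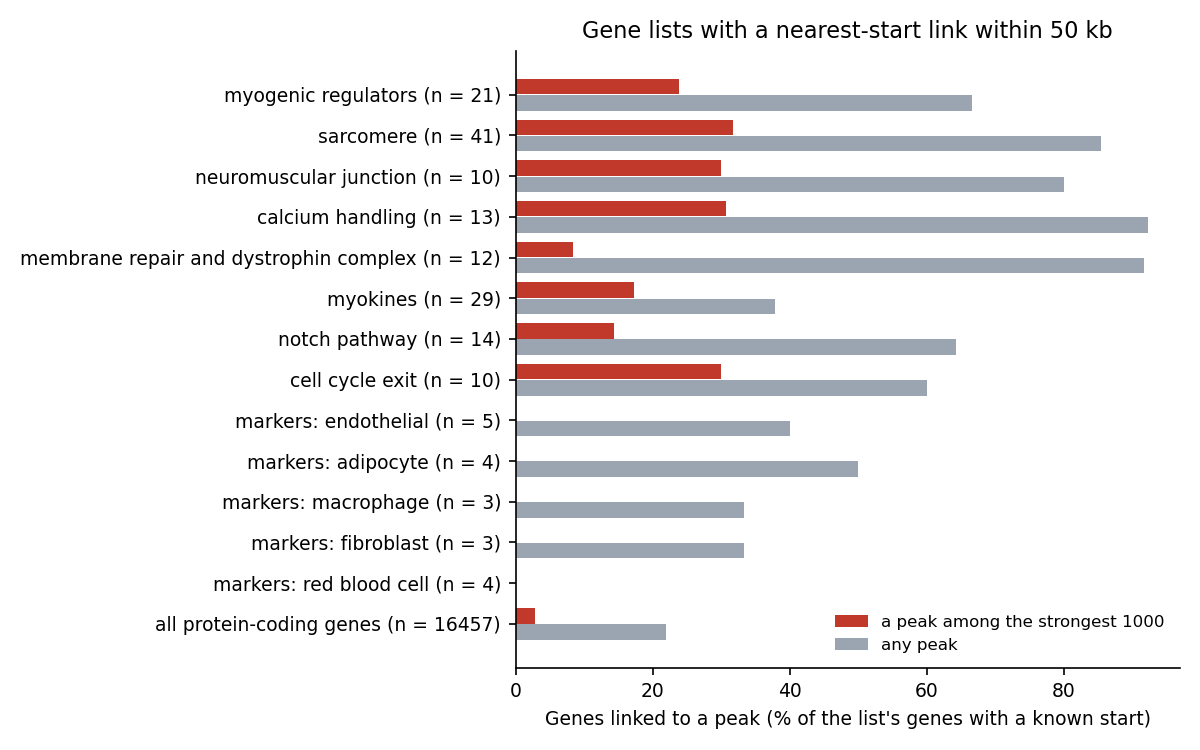
Share of the genes of each list with a known start (%) that are linked to a strong peak (red) or to any peak (grey), with the number of genes with a known start beside each name and all protein-coding genes at the bottom. The sarcomere list reaches 31.7% and all protein-coding genes 2.86% for strong peaks, and the 5 marker lists are at 0.

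Within the sarcomere list the tallest peaks stood at Acta1, Myl1, Mybph and Actc1. Acta1, the skeletal muscle actin, had peaks 618 bp before its start with a pileup of 86.8 (chr8:123895290-123895508) and 1409 bp before it with 79.1 (chr8:123896089-123896283), at folds of 11.0 and 11.4. Myl1, a fast myosin light chain, had a peak of 85.9 lying 22826 bp after its start, beyond the gene's end (chr1:66922109-66922364), and a peak of 65.6 lying 6199 bp before it. Myl1 is known for an enhancer downstream of the gene. Actc1 had a peak of 83.0 lying 4757 bp before its start (chr2:114057498-114057760), and Mybph, a myosin-binding protein, a peak of 83.9 lying 2793 bp after it (chr1:134196012-134196379). The tall peaks of Myl1, Actc1 and Mybph stood on backgrounds of 16.0, 15.0 and 13.0, so that their folds were 5.11, 5.25 and 6.07. Lmod2, a nucleator of thin filaments, had a fold of 3.01 on a background of 16.0.

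The other listed sarcomere genes had lower peaks. Mylpf, the fast regulatory light chain, had a pileup of 64.7 lying 1097 bp before the start used here but inside the annotated gene. Actn2, which anchors thin filaments at the Z-disc, had 68.5, and Myom1, which links thick filaments at the M-band, had 61.8, both inside the gene. Smyd1, a methyltransferase needed for sarcomere assembly, had 49.2 lying 373 bp before its start, and Tnnt2 had 51.1 and 45.4 lying 225 and 1987 bp before it. Embryonic myosin Myh3 had 3 peaks of 50.2 to 52.1 more than 27 kb after its start, all outside protein-coding genes. Tpm1, a tropomyosin, had 46.3 lying 36463 bp after its start and inside no protein-coding gene, and Myom3 had 46.3 inside the gene. Lmod2, Tnnt2, Smyd1, Tpm1 and Myom3 complete the 13 genes and lie outside the naming rule of 8 genes a list. Over the 19 strong peaks linked to this list the median background was 6.0 and the median fold 9.46, against 4.0 and 12.6 over all 1000, and 5 of the 19 were among the 36 with a background of at least 10. High local background thus moved with this list, and its part in the height of these peaks was not tested.

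At the acetylcholine receptor the peaks lay in the promoters. Chrng, the subunit of the fetal receptor, had a pileup of 87.8 with a fold of 12.7 and a summit 160 bp before its start (chr1:87205541-87205754). The same peak lay 5581 bp from Chrnd, the delta subunit, whose start was not known. Chrna1 had 62.7 with a fold of 7.98 and a summit 74 bp before its start (chr2:73580299-73580518). Dok7, an activator of the receptor kinase MuSK, had 56.9 inside the gene. Among calcium handling genes, Ryr1, the calcium release channel, had 51.1 lying 1194 bp after its start, and Cacnb1, a subunit of the voltage sensor, had 47.3 lying 1339 bp after it. Hrc, a calcium-binding protein of the sarcoplasmic reticulum, had 51.1 lying 545 bp before its start, and Camk2b, a calcium-dependent kinase, had 46.3 inside the gene.

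Several regulators that work with the myogenic factors had strong peaks of their own. Beside Tcf12, with 109, there were peaks at MEF2 genes: Mef2a had neighbouring peaks of 71.4 and 57.9, lying 12844 and 12396 bp before its start, Mef2d had 53.1, and Mef2c had 45.4 lying 124 bp after a start. Hdac9, which holds MEF2 factors in check, had 48.2 lying 204 bp before the start used here but inside the annotated gene. For genes without a known start, which the naming rule did not cover, peaks inside the gene or within 10 kb of it were read. They included 2 inside Tead1, with 73.3 and 64.7, and 1 inside Tead4, with 65.6, both genes of factors that read the Hippo pathway, and 2 at Mymk, the fusion protein myomaker, with 59.8 and 56.0. The second of the Mymk peaks was 57 bp from the gene. Tcf4, a further E protein gene, held 2. Beyond these 10 kb and chosen after the values were seen, 2 strong peaks with backgrounds of 10.0 that were linked to no gene lay nearest to Myod1. They were 23133 and 27528 bp from this gene, the nearest protein-coding one.

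Numb, an inhibitor of Notch, had one of the tallest peaks, with 97.5 (chr12:83848970-83849224). It lay 6717 bp before the start used here but inside the annotated gene. Notch1 had 46.3 with a fold of 23.7 inside the gene. Dag1, the dystroglycan gene, had 50.2 lying 10899 bp before its start. Without a known start there were peaks inside Popdc3, with 74.3, and inside Dtna and Bin1. Among the myokines, Ctf1 had 53.1 lying 1014 bp before its start, Lif had 47.3 lying 39208 bp after it, and Mstn, the growth inhibitor myostatin, had 46.3 lying 23887 bp after it. Egf and Fgf21 each had 45.4, lying 11735 and 1048 bp before their starts, and the Fgf21 peak had a fold of 24.5. All but Ctf1 of these 5 had 47 to 49 fragments, where the lowest strong peaks had 46. Of the cell cycle exit list, Gadd45a had 52.1 lying 21435 bp after its start, inside another gene, Gng12. Btg2 had 51.1 lying 7619 bp after its start and inside no protein-coding gene, and Ccnd3 had 47.3 inside the gene. Of the marker lists, Vwf held a strong peak inside the gene and Cidea had one at 6556 bp, seen only by gene spans. Chosen after the values were seen, a peak of 63.7 lay 9069 bp from the hairpin of Mir206, a muscle microRNA.

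In the RNA tables Myf6 itself checked the labels: its level was 46.3, 25 and 111 RPM (reads assigned to a gene, scaled to the depth of the library) in uninjured WT and 1.86, 3.46 and 2.27 in uninjured KO, and 47.9, 121 and 72.5 against 3.32, 2.88 and 3.02 after injury. Every KO library was below every WT library. The skeletal muscle marker Acta1 was at 14358 RPM or more in every library, and RNA of the myotubes was not analysed here. Myf6 fell by 3.90 and 4.22 on the log2(RPM + 1) scale (limma, adjusted p = 0.0215 and 0.00697). The libraries held 1880087 to 49392472 reads, so that 3 reads correspond to 0.0607 to 1.60 RPM. WT replicate 2 without injury was the shallowest. The share of reads on mitochondrial genes was lower in KO replicates 1 and 3 than in every WT library of the same state. It was 18.1%, 22.3% and 13.8% in uninjured WT and 6.76%, 15.3% and 3.63% in uninjured KO, and 12.5%, 8.35% and 14.8% in injured WT and 4.95%, 23.2% and 4.30% in injured KO. Replicate 2 was the highest of the KO libraries in both states, and the part of this share in the RPM values was not tested. In the labels each uninjured library shares its number with 1 injured library of the same genotype, the names differing in a final L or R, so that a like difference in both states is not independent support. In whole muscle, fewer cells of a type and less RNA per cell cannot be told apart.

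Genes linked to strong peaks were mostly active in muscle. At least 1 RPM in all 3 uninjured WT libraries was reached by 77.7% of the 466 linked genes found in the tables, by 70.9% of genes linked to other peaks only and by 46.9% of genes with a known start and no linked peak. After injury the shares were 79.6%, 73.0% and 48.2%. For the 46 genes with a strong peak within 1 kb of the start they were 89.1% and 95.7%. These shares are counts over genes, which are not independent replicates.

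The share of linked genes that differed between KO and WT by limma was close to that of all genes. Of the 466, 385 passed the filter of 1 RPM in at least 3 libraries without injury, and none passed limma at an adjusted p of 0.05, where 0.281% of all 12460 genes tested did. At an unadjusted p under 0.05 there were 47 (12.2%, 17 of them higher in KO), against 14.2% of all genes. Their median change was -0.10 on the log2(RPM + 1) scale, against -0.18 over all genes. After injury 386 were tested, none passed and 0.269% of all 12625 genes did, and 40 (10.4%, 26 higher in KO) had an unadjusted p under 0.05, against 10.3%. Their median change was 0.06, against 0.01.

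The number of calls depended on the tool. DESeq2 on the whole reads recovered from RPM called 19 linked genes without injury, 4.94% of those tested against 5.32% of all genes, and 12 after injury, 3.11% against 3.38%. Linked genes that passed by the q-values of the authors' deposited table numbered 9 and 6. These were 1.93% and 1.29% of the 466, against 0.668% and 0.454% of all 49585 genes deposited, without the filter of 1 RPM. EdgeR called 1, Podxl2, and 0, or 0.260% and 0% of those tested, against 0.441% and 0.261% of all genes. Without KO replicate 2 after injury, limma called 83 linked genes, 21.6% of those tested against 19% of all genes. The median of all genes without injury was -0.18 by limma and 0.01 by DESeq2, and the median of the linked genes was -0.10 and 0.10. These tools differ in more than scaling. With upper quartile scaling in limma the medians stayed below 0, at -0.08 and -0.0014, and without KO replicate 2 they were 0.0033 and 0.10. The direction of small changes without injury thus depended on the tool and on this library. Of the adipocyte marker list, 5 of 6 genes without injury and 3 of 6 after it were higher in KO at an unadjusted p under 0.05, against 14.2% and 10.3% of all genes in either direction, none passed, none was at 0 in all libraries, and the summed level was 887 to 1627 RPM in uninjured WT and 1440 to 2355 in uninjured KO, 339 to 1023 and 1137 to 2314 after injury. Of the macrophage, fibroblast and red blood cell marker lists, 2 of 5 genes each were lower in KO without injury at an unadjusted p under 0.05, with median changes of -0.81, -0.67 and -0.67, and none passed. The part of these marker lists in the RNA values below was not tested.

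The linked genes described next were chosen after their values were seen, from those with the lowest p in either state. Without injury the lowest p was that of Myo5c, a myosin motor gene with a peak of 46.3 lying 21955 bp after its start. Its RNA was 39.2, 46.3 and 26.3 RPM in uninjured WT and 13.7, 12.9 and 11.1 in KO, a change of -1.46 (SE 0.31, limma adjusted p = 0.0927, 0.0105 to 0.578 over 14 alternatives). After injury KO replicate 2, at 52.7 RPM, lay above all WT libraries, at 45.8, 42.7 and 40.6, and the other KO libraries, at 9.56 and 12.0, lay below them. Adpgk, Dgkz and Mtx3 had the same order without injury, all KO libraries below all WT libraries, with changes of -1.29, -1.40 and -1.41 (limma adjusted p = 0.115, 0.119 and 0.145). After injury KO replicate 2 of these genes, at 32.8, 255 and 24.2 RPM, was again far above the other KO libraries, which were at most 8.54, 45.4 and 7.04.

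After injury the lowest p was that of Itgb6. Itgb6, an integrin subunit, had 3 strong peaks, the tallest of 79.1 lying 12088 bp after its start (chr2:60710390-60710623). Its RNA was 33.6, 22.3 and 33.3 RPM in uninjured WT and 8.06, 8.58 and 16.0 in KO, and 31.6, 38.2 and 29.6 against 14, 10.6 and 15.8 after injury. All KO libraries lay below all WT libraries in both states. The changes were -1.41 (SE 0.36, limma adjusted p = 0.145) and -1.25 (SE 0.21, adjusted p = 0.102). Under the 14 alternatives the adjusted p ran from 0.00741 to 0.653 and from 5.98e-05 to 0.563, and it was under 0.05 in 3 of them in each state.

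Cmbl, a hydrolase, had a strong peak 695 bp after its start with a pileup of 50.2 (chr15:31569417-31569626). Its RNA was 118, 106 and 138 RPM in uninjured WT and 56.2, 35.5 and 61.4 in KO, and 130, 141 and 128 against 71.0, 42.7 and 58.8 after injury. Again no KO library reached a WT library. The changes were -1.26 (SE 0.29, limma adjusted p = 0.112) and -1.22 (SE 0.22, adjusted p = 0.111). Among the linked genes, DESeq2 called Itgb6, Cmbl and Nim1k in both states. The number of all genes it called in both is not given here, so these names do not show an excess. Nim1k, a kinase gene, had 5.12, 1.06 and 3.0 RPM in uninjured WT and 8.75, 9.37 and 9.87 in KO. After injury it had 4.95, 4.27 and 4.36 against 10.3, 7.75 and 10.0. Its second uninjured WT value lies below the 3-read floor of 1.60 RPM of that library. The difference between the states was not tested for any of these genes.

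Others separated in 1 state or in both. Podxl2, with a peak of 60.8 at a fold of 30.9 lying 11619 bp before its start, had 9.98, 7.45 and 8.93 RPM in uninjured WT and 24.6, 19.2 and 33.8 in KO, a change of 1.43 (SE 0.33, limma adjusted p = 0.111). After injury the groups overlapped. Dusp1, a phosphatase of MAP kinases, had 72.2, 69.7 and 73.0 RPM in uninjured WT and 14.5, 10.2 and 46.6 in KO, a change of -1.84 (limma adjusted p = 0.153), and 63.8, 71.5 and 59.3 against 21.9, 44.0 and 44.6 after injury, a change of -0.86 (adjusted p = 0.402). All KO libraries lay below all WT libraries in both states. Among genes higher in KO after injury, Vash2, a vasohibin gene, had 0.75, 1.12 and 1.61 RPM in injured WT and 4.18, 3.82 and 3.18 in injured KO, a change of 1.14 (limma adjusted p = 0.166). Megf9 had 5.40, 4.34 and 5.13 RPM in injured WT and 9.29, 12.1 and 8.87 in injured KO, a change of 0.89 (limma adjusted p = 0.213). Chrna9, a receptor subunit gene, had 0.450, 0.187 and 0.115 RPM in injured WT and 3.91, 1.44 and 1.86 in injured KO, a change of 1.39 (limma adjusted p = 0.215). Its WT values are near the floor, as 3 reads correspond to 0.225, 0.112 and 0.115 RPM in these libraries. DESeq2 gave a change of 3.38 (DESeq2 adjusted p = 0.000331). After injury the adjusted p was under 0.05 in 3 of 13 alternatives for Vash2, 3 of 14 for Megf9 and 2 of 10 for Chrna9.

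Of the sarcomere genes with the tallest peaks, Acta1, Mybph and Actc1 overlapped between WT and KO in both states and Myl1 did not. Acta1 RNA was 18986, 17633 and 23192 RPM in uninjured WT and 24242, 19964 and 33199 in KO, and after injury the KO libraries, at 32210, 14358 and 33789, lay on both sides of WT, at 26743, 31078 and 26675. Myl1 RNA was 21147, 19074 and 20774 RPM in uninjured WT and 18599, 16032 and 14646 in KO, and 20048, 21960 and 23542 against 14550, 16977 and 16097 after injury. Myl1 was lower in every KO library in both states, with changes of -0.31 (SE 0.29, limma adjusted p = 0.672) and -0.46 (SE 0.27, adjusted p = 0.597). Of the 13 sarcomere genes linked to strong peaks none had an unadjusted p under 0.05 without injury, and 2 did after it, Myom1 and Myh3, both higher in KO. In the whole sarcomere list of 51 tested genes 17 did without injury, all higher in KO, with a median change of 0.44, against 0.15 for the 13. Over all genes 14.2% did, 440 of 1774 higher in KO, with a median of -0.18. After injury 12 of the 51 did, 11 of them higher in KO, with a median change of 0.42, against 0.41 for the 13 and 0.01 over all genes, where 10.3% did and 639 of 1303 were higher. In each state 1 of the 51 passed at an adjusted p of 0.05, Myh6, which is not among the 13 and can share reads with its close copy Myh7.

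For the regulators and receptors the groups mostly overlapped. Tcf12 had 16.3, 5.32 and 32.6 RPM in uninjured WT and 7.0, 5.67 and 17.8 in KO, and 14.3, 15.4 and 16.3 against 16.0, 16.1 and 17.3 after injury. Chrna1 had 9.11, 3.19 and 9.29 RPM in uninjured WT and 6.66, 3.15 and 12.9 in KO. Numb had 27.3, 20.2 and 17.6 RPM in uninjured WT and 15.2 in each KO library, a change of -0.46 (SE 0.30, limma adjusted p = 0.517). Numb was lower in all 3 KO libraries without injury and in 2 of 3 after it. Chrng did not pass the filter: it was at most 0.791 RPM in any library, although its promoter peak was among the tallest in myotubes.

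Among linked myokines no call was made. Egf had 26.7, 16.0 and 32.4 RPM in uninjured WT and 15.4, 12.7 and 28.7 in KO, and Mstn had 50.9, 32.5 and 102 against 31.3, 11.0 and 80.5. Both pairs of groups overlapped. Lif had 1.19, 2.13 and 1.22 RPM in uninjured WT and 0.457, 0.236 and 0.514 in KO, below all WT libraries, with a change of -0.83 (SE 0.36, limma adjusted p = 0.348). The second WT value is close to the 3-read floor of 1.60 RPM of that library. After injury Lif did not pass the filter, and Fgf21 was at most 0.0810 RPM in any library. Cacnb1, with a strong peak near its start, had 87.6, 76.6 and 92.9 RPM in uninjured WT and 161, 98.3 and 195 in KO, a change of 0.76 (SE 0.30, adjusted p = 0.295, 0.00276 to 0.707 over 14 alternatives).

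**Figure D5:**
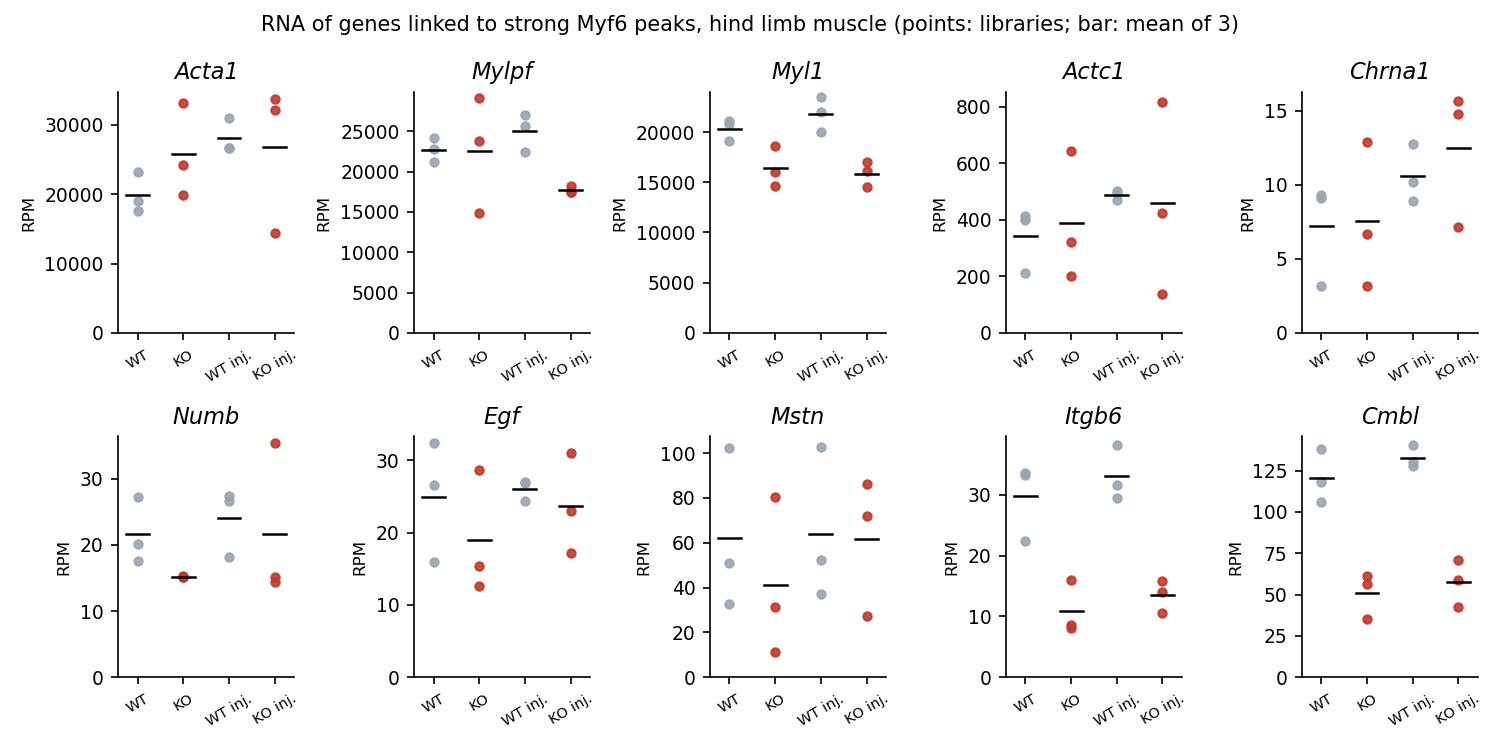
RNA level in RPM of 10 genes linked to strong peaks in each library of the 4 groups (points), with the mean of the 3 libraries as a bar. In Itgb6 and Cmbl all KO points lie below all WT points in both states, while in Actc1, Chrna1, Egf and Mstn the groups overlap.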

How the data were processed

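The authors deposited 1 peak list and 2 RNA tables. Tools named without a role in the submitters' processing notes are Bowtie 1.1.0, MACS2 2.1.0.20140616, HISAT2 2.1.0, SAMtools, featureCounts and DESeq2, with builds mm10 and GRCm38.p5. Per the file headers, MACS2 called peaks on 6820784 kept ChIP reads and 6581071 control reads at a q of 0.05, with 1 read kept per position and reads extended to 127 bp. Per the file headers the pileup is a signal (coverage) value, here 0.965 per fragment, beside the fold enrichment, a ratio, and -log10 of p and q. The deposited RNA values are RPM, with log2 fold changes, p-values and q-values by the authors. Local background was computed as (pileup + 1)/fold - 1. Starts and promoter windows came from RefSeq tables of GRCm38.p6, which gave a start for 16457 of 20665 protein-coding genes on chromosomes 1 to 19 and none on chromosome 18. No genome sequence was used, so summits outside promoter windows and flanking windows were not searched for motifs. On the scale log2(RPM + 1), genes with at least 1 RPM in 3 of 6 libraries were tested two-sided by limma 3.58.1 with a trend (R 4.3.3), with Benjamini-Hochberg adjustment. Whole reads were recovered from RPM for DESeq2 1.42.0 and edgeR 4.0.16. In each library 100% of the lower non-zero values were close to whole reads, and larger values were rounded without this check. The limma script was tested on simulated data. The peaks, gene lists and rules were chosen with earlier results of these data known. Named are the 10 tallest peaks, the 5 highest and 3 lowest by fold, the peaks beside the boundary, up to 8 genes per list by pileup and linked genes that passed the test. Most genes outside this rule are marked as such in the text. Not marked are genes named for having 3 strong peaks, for a window without a favoured core and for the span link, which were named from the results. One result is not reported here.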

Additional observations from a re-analysis of the deposited data

Results flagged for a closer look

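Peaks at least as high as the lowest strong peak also stood outside chromosomes 1 to 19, in sequence that the choice of strong peaks leaves out. On mitochondrial DNA all 10 peaks of the list did, with a median pileup of 208 and folds of 1.35 to 2.64. On chromosome X 5 of 192 peaks did, with folds over that chromosome's peaks of 3.55 to 21.4. On unplaced sequence 2 of 3 peaks did, with folds of 2.66 to 4.11. These values are a description, and their source was not tested.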

How the results depend on the processing

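Linked genes called, 0 by limma in both states, came to 19 and 12 with DESeq2 and 9 and 6 by the authors' deposited q-value. Without injury they came to 2 with upper quartile scaling (Podxl2 and Cmbl), or 0.522% of those tested against 0.977% of all genes. In the same state edgeR gave 1 (Podxl2), and linking peaks to the nearest gene span gave 1 (Exoc7). EdgeR, the span link and 2 treatments of ties were added after seeing the data. Genes called in all, 35 and 34, came to 663 and 427 with DESeq2, 331 and 225 by the authors' q-value, 7 and 4 with at least 1 RPM in every library, 1 and 19 without a filter, and, without injury, 20 with a pseudocount of 0.1, 55 with edgeR and 121 with upper quartile scaling. Of those called after injury 22 of 34 were higher in KO with limma and 210 of 427 with DESeq2. Leaving out 1 library at a time gave 3 to 84 genes without injury, of them 0 to 1 linked. The 1 was Dusp1, without KO replicate 3, or 0.265% of the linked genes tested against 0.690% of all genes. After injury it gave 0 to 2343, of them 0 to 83 linked, with the highest counts without KO replicate 2 and 0 without any other library. Without injury each left-out library other than KO replicate 2 moved the count by over 1.5 times. Correlations of deviations from the group mean between same-numbered WT and KO libraries were 0.03, 0.26 and 0.38 without injury. Other pairs were at -0.33 to 0.10. After injury they were -0.47, -0.61 and -0.30, with other pairs at -0.55 to 0.65. Same-numbered libraries thus did not pair after injury, while without it replicates 2 and 3 leaned that way. A replicate block called 752 genes (6.0% of all tested) and 22 linked ones (5.7% of those tested) without injury and 0 after it. The E-box share, 100%, was 78.9% within 25 bp of the summit. The share near a start, 4.78%, was 3.01% within 500 bp, 8.72% within 2.5 kb, 7.27% for starts of every gene type and 3.03% for the 1000 highest by fold. The direction of Myf6 held throughout, and it missed the threshold in 4 and 6 of 14 alternatives. Causes were not tested. Flanking windows could not be made.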
